A study of Homo sapiens with 6 samples.

Results

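Tight junctions and desmosomes hold neighbouring epithelial cells together, and 10 genes that encode their parts were examined in drug-tolerant persisters (DTPs) of PC9 cells. The genes were the claudins CLDN1, CLDN3, CLDN4 and CLDN7, occludin (OCLN) and the scaffold TJP1 for the tight junction, and DSP, DSG2, DSC2 and JUP for the desmosome. They were taken by name from a list of 10, and all probe sets that the array annotation assigned to exactly 1 of them were used. This gave 21 of the 54613 probe sets tested and 10 of the 19775 genes measured. No probe set of a member was shared with another gene in the annotation.

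PC9 is a human non-small cell lung cancer line with a mutated EGFR gene, and all 6 cultures used here carried a GFP vector, kept as a stable line in the study's methods. The 3 parental cultures received DMSO, and the 3 DTP cultures were what remained after 9 days in 2 µM erlotinib, an EGFR kinase inhibitor. RNA of each culture was read on its own Affymetrix Human Genome U133 Plus 2.0 array, and the values are log2 probe set summaries. In the labels' protocols DTPs were collected on day 10, with drug begun at 80% confluency, whereas parental cells reached 100% confluency and were collected on day 3. By contrast, the series' design text has both groups treated for 9 days, and which account holds is not settled here. Cell density and days in culture therefore cannot be told apart from the drug, which matters for genes of cell contacts. Survival of a subset of cells cannot be told apart from a change within cells, nor fewer cells of a type from less RNA per cell. Every rise or fall below is a difference between group means.

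In a tight junction, claudins and occludin span the membrane and close the space between cells, and claudin types set which ions and molecules may pass. TJP1, also known as ZO-1, lies beneath the membrane and ties these proteins to actin. In a desmosome, the cadherins desmoglein and desmocollin reach across the gap, while plakoglobin (JUP) and desmoplakin (DSP) form a plaque that anchors keratin filaments. Plakoglobin also takes part in adherens junctions. Both junctions are general features of epithelia, and loss of their genes is a familiar sign of an epithelial cell taking on mesenchymal traits.

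The 10 genes did not move together. CLDN1 and JUP rose in DTPs, OCLN and CLDN7 fell, and the other 6 were not called. To be called, a gene needed a fold over 1.5 and a Benjamini-Hochberg adjusted p under 0.05 in a limma test of all 19775 genes. Thus 2 of 10 members were called higher, where 8.08% of all genes were, and 2 of 10 were called lower, where 6.13% of all genes were. By the adjusted p alone, 4 members were higher (20.4% of all genes were) and 3 lower (24% of all genes were), and 44.5% of all genes passed in either direction. The 3 DTP arrays lay wholly above or below the 3 parental arrays in 8 of the 10 genes, a separation that 53.7% of all genes had. The median log2 fold change was 0.10 over the members and -0.05 over all genes.

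**Figure D1:**
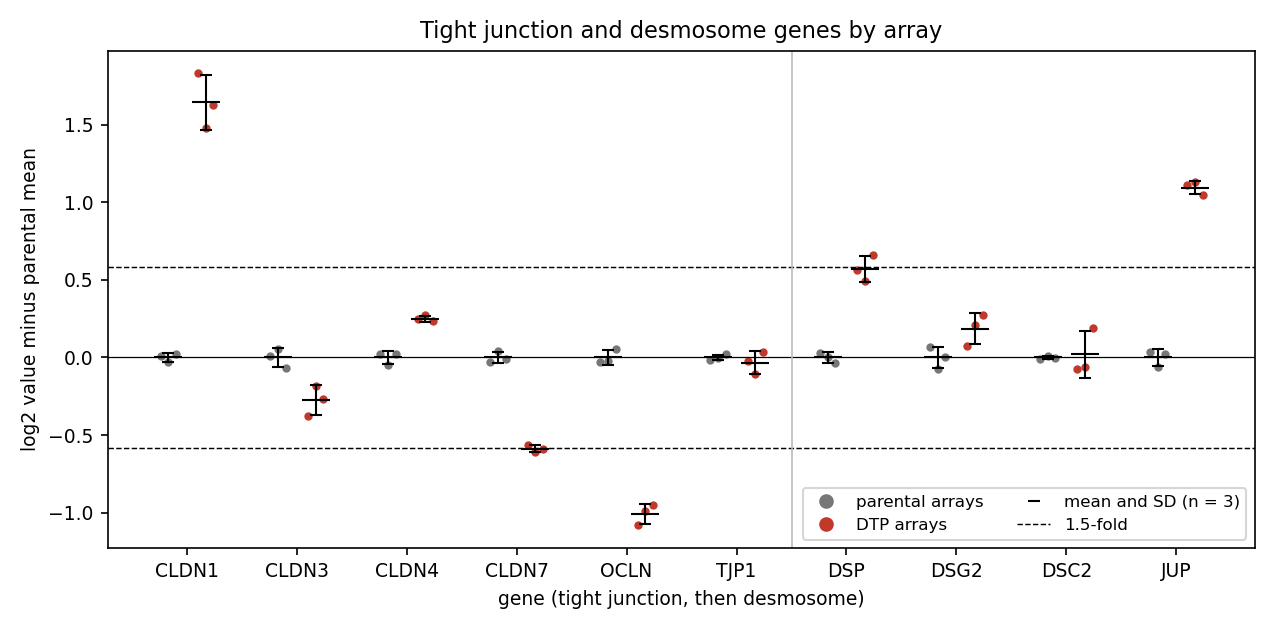
Log2 values of the 10 genes (horizontal axis) on each parental (grey) and DTP (red) array (vertical axis), each less the mean of its parental values, with the mean and SD of 3 arrays in black and dashed lines at a 1.5-fold difference. CLDN1 (1.64) and JUP (1.09) lie above the upper line and OCLN (-1.01) below the lower one, while the CLDN7 mean (-0.59) lies almost on it.

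CLDN1, a claudin that tightens the barrier, changed most. Its log2 values were 10.42, 10.38 and 10.43 in parental cells and 12.24, 11.89 and 12.04 in DTPs. The groups were far apart, although the DTP arrays were more spread (SD 0.18) than the parental ones (SD 0.03). CLDN1 was 3.13-fold higher in DTPs (log2 fold change 1.64 ± 0.09 SE, 95% interval 1.46 to 1.83, n = 3 per group, limma adjusted p = 9.5e-09). A second probe set of CLDN1, which was dimmer, read 9.44, 9.52 and 9.54 in parental cells and 11.27, 10.99 and 11.17 in DTPs, again a 3.13-fold rise. DTP replicate 2 was the lowest DTP array on both.

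The other 3 claudins moved less and in differing directions. CLDN7, which is found in tight junctions and also along the lateral membrane, read 13.17, 13.24 and 13.19 in parental cells and 12.64, 12.59 and 12.61 in DTPs. Its arrays were tight in both groups and fully apart. The fall was 1.5-fold (-0.59 ± 0.06 SE, limma adjusted p = 8.0e-06), so CLDN7 was called by the narrowest margin, with a log2 fold change of -0.5878. This call was lost without parental replicate 2 (-0.57) or DTP replicate 2 (-0.58), under cyclic loess (-0.53) and with centring of each array on its ribosomal protein genes (-0.47) or its spike-ins (-0.41), while its adjusted p was at most 0.0066 in all of these.

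CLDN3, a claudin that seals the barrier, read 7.55, 7.60 and 7.48 in parental cells and 7.17, 7.36 and 7.27 in DTPs. These values were near the median of all probe sets, 7.30, and the groups did not overlap. CLDN3 was 1.21-fold lower (-0.28 ± 0.07 SE, limma adjusted p = 0.0079), which missed the fold minimum. The adjusted p of CLDN3 was no longer under 0.05 with ribosomal centring (-0.16, limma adjusted p = 0.10), spike-in centring (-0.10, 0.62) or its brightest probe set of any type (-0.23, 0.091). Its other probe set, of a type that can bind other transcripts, had a log2 fold change of -0.23 (95% interval -0.46 to 0.00, adjusted p = 0.11 by limma over probe sets). CLDN4, a claudin that limits the passage of sodium, read 9.71, 9.64 and 9.71 in parental cells and 9.93, 9.96 and 9.92 in DTPs. It was 1.19-fold higher without overlap (0.25 ± 0.06 SE, limma adjusted p = 0.0067), a change too small for the fold minimum. CLDN3 and CLDN4 are next to each other on chromosome 7, with 0 protein-coding genes between them in RefSeq.

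OCLN, the tetraspan partner of the claudins, showed the clearest fall. It read 11.83, 11.83 and 11.91 in parental cells and 10.78, 10.87 and 10.91 in DTPs. All DTP arrays lay below all parental arrays by far more than either spread. OCLN was 2.01-fold lower (-1.01 ± 0.07 SE, 95% interval -1.16 to -0.86, limma adjusted p = 9.7e-08). The scaffold TJP1, at 11.67, 11.68 and 11.71 in parental cells and 11.66, 11.58 and 11.72 in DTPs, had overlapping groups and did not pass the test (-0.03 ± 0.07 SE, 95% interval -0.18 to 0.11, limma adjusted p = 0.73). The sign of TJP1 turned without DTP replicate 2 (0.01), under cyclic loess (0.02) and with ribosomal (0.08) or spike-in (0.14) centring. Its other probe set differed by -0.06 (limma adjusted p = 0.59 over probe sets).

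Of the 4 desmosome genes, the plaque gene JUP was called higher, and DSP and both cadherins were not called. JUP, the plakoglobin gene, read 11.35, 11.25 and 11.34 in parental cells and 12.42, 12.44 and 12.36 in DTPs. The arrays of each group were close together and the groups far apart. JUP rose 2.14-fold (1.09 ± 0.07 SE, 95% interval 0.95 to 1.24, limma adjusted p = 3.6e-08). It was read by 1 probe set only, as were CLDN7 and DSP.

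DSP, which links the plaque to keratin, read 10.98, 10.96 and 10.92 in parental cells and 11.52, 11.44 and 11.61 in DTPs, without overlap. DSP was 1.48-fold higher (0.57 ± 0.07 SE, limma adjusted p = 2.1e-05), just inside the fold minimum as CLDN7 was just past it. It was called higher without parental replicate 1 (0.59) or DTP replicate 2 (0.61), under cyclic loess (0.61) and with ribosomal (0.68) or spike-in (0.75) centring.

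The desmosomal cadherins were not called. DSG2, the desmoglein of simple epithelia, read 11.53, 11.39 and 11.47 in parental cells and 11.54, 11.67 and 11.74 in DTPs. Its groups nearly touched, and it did not pass (0.18 ± 0.07 SE, 95% interval 0.02 to 0.35, limma adjusted p = 0.062). The adjusted p of DSG2 fell under 0.05 with ribosomal centring (0.30, limma adjusted p = 0.0054), spike-in centring (0.36, 0.019), cyclic loess (0.23, 0.013), dim probe sets left out (0.18, 0.037), robust variances (0.18, 0.020) and without DTP replicate 1 (0.24, 0.031), below the fold minimum in each. DSC2, the desmocollin that pairs with it, read 9.34, 9.37 and 9.35 in parental cells and 9.28, 9.29 and 9.55 in DTPs on its brightest probe set. Here DTP replicate 3 lay above the parental arrays and the other DTP arrays below them. The log2 fold change of DSC2 was 0.02 ± 0.08 SE (limma adjusted p = 0.87), and it turned to -0.07 without DTP replicate 3 and to -0.04 with array weights. DSC2 and DSG2 lie in the desmosomal cadherin cluster on chromosome 18, with DSC1, DSG1, DSG4 and DSG3 between them.

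Over the 21 probe sets, 3 were called higher (7.56% of all probe sets were) and 3 lower (4.93% of all probe sets), and 15 were not called. The groups did not overlap in 14 of the 21, as in 49.9% of all probe sets. More than 1 probe set read 7 of the 10 genes, and these did not always give like changes. For each such gene the change on every other probe set was compared with that on the probe set taken, by limma on the differences between the 2 values per array, over 21316 such pairs of all genes. This comparison was added after the values had been seen. The changes differed in 6 of the 11 member pairs at an adjusted p under 0.05, beside 29.8% of all pairs.

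**Figure D2:**
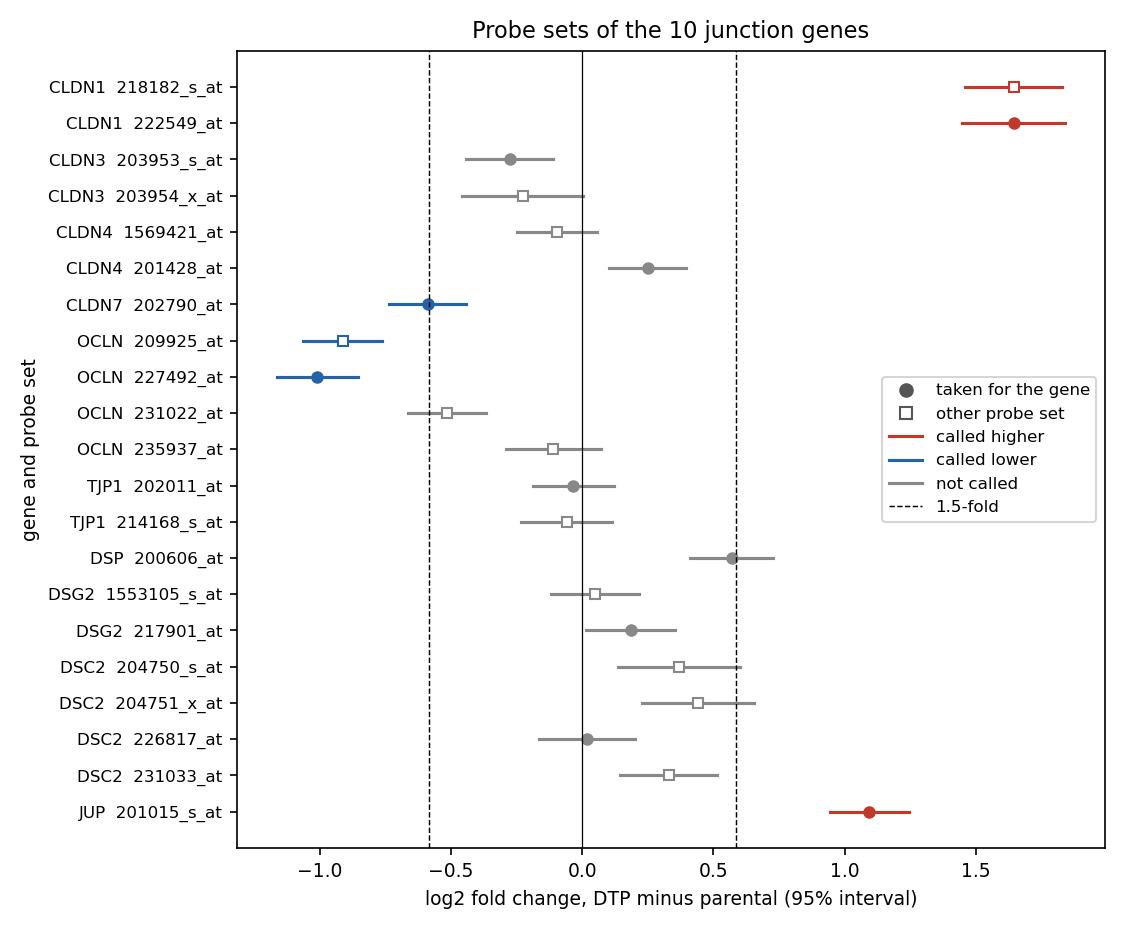
Log2 fold change between DTPs and parental cells (DTP minus parental, horizontal axis, points) with limma's 95% interval (lines, 3 arrays per group) for the 21 probe sets of the 10 genes (vertical axis). Filled circles are the probe sets taken for a gene and open squares the others, red and blue mark probe sets called higher and lower, and dashed lines mark 1.5-fold. The 2 probe sets of CLDN1 coincide at 1.64, the 4 of OCLN run from -1.01 to -0.11 and the 4 of DSC2 from 0.02 to 0.44.

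OCLN was lower on all 4 of its probe sets but to unequal degrees. The next brightest read 10.81, 10.83 and 10.83 in parental cells and 9.86, 9.89 and 9.98 in DTPs, a 1.88-fold fall that was also called (limma adjusted p = 8.7e-07 over probe sets) and did not differ detectably from that on the probe set taken (difference 0.10, 95% interval -0.07 to 0.26, limma adjusted p = 0.39). On another, values went from 9.50, 9.53 and 9.51 in parental cells to 8.95, 8.99 and 9.05 in DTPs, a 1.43-fold difference that was smaller than on the probe set taken (difference 0.49, 95% interval 0.33 to 0.66, limma adjusted p = 8.8e-04). The dimmest, at 6.96, 7.02 and 7.01 in parental cells and 6.73, 7.01 and 6.93 in DTPs, overlapped between groups. With the mean over its 4 probe sets OCLN was still called lower (-0.64, limma adjusted p = 6.9e-06).

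DSC2 showed the reverse, in that the brightest probe set, the one taken, had the smallest change. The second probe set, of the type that can bind other transcripts, read 8.16, 8.31 and 8.18 in parental cells and 8.54, 8.56 and 8.88 in DTPs. The third read 7.43, 7.48 and 7.19 in parental cells and 7.62, 7.64 and 7.95 in DTPs. The fourth, below the median of all probe sets, read 5.46, 5.56 and 5.58 in parental cells and 5.80, 5.77 and 6.03 in DTPs. On these 3 every DTP array exceeded every parental array, with log2 fold changes of 0.44, 0.37 and 0.33 that stayed below the fold minimum (limma adjusted p = 0.0034, 0.016 and 0.0084 over probe sets). Each differed from the change on the brightest probe set (limma adjusted p = 0.0029, 0.020 and 0.012). Without DTP replicate 3 their log2 fold changes were 0.33, 0.26 and 0.25, with limma adjusted p of 0.0093, 0.069 and 0.025. With the mean over its probe sets DSC2 differed by 0.29 (limma adjusted p = 0.014), still not called.

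**Figure D3:**
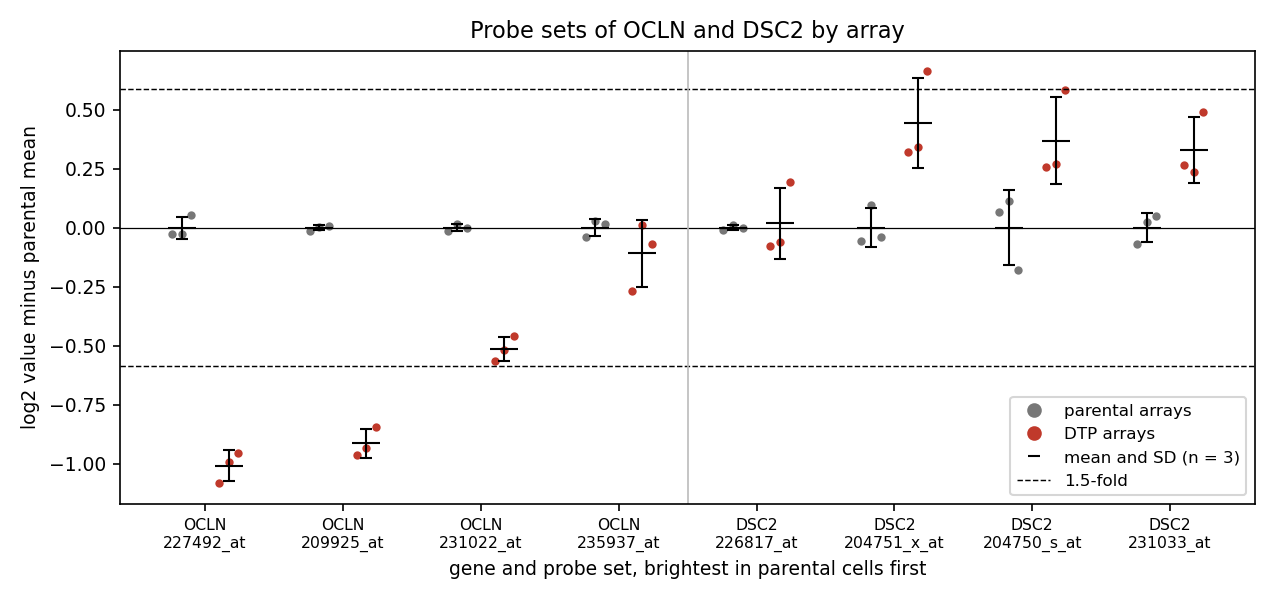
Log2 values of the 4 probe sets of OCLN and the 4 of DSC2 (horizontal axis, brightest first) on single parental (grey) and DTP (red) arrays, minus the parental mean of the probe set (vertical axis), with the mean and SD of 3 arrays in black and dashed lines at 1.5-fold. The fall of OCLN shrinks from -1.01 on the brightest to -0.11 on the dimmest probe set, and DTP replicate 3, the rightmost red point, is the highest DTP array on all 4 of DSC2.

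The 2 probe sets of CLDN4 had opposite signs. The dimmer one read 7.75, 7.86 and 7.82 in parental cells and 7.76, 7.71 and 7.68 in DTPs, a log2 fold change of -0.09 (95% interval -0.25 to 0.06, limma adjusted p = 0.31 over probe sets) that differed from the 0.25 on the brighter one (limma adjusted p = 0.011). The mean of both gave 0.08 for CLDN4 (limma adjusted p = 0.25). The dimmer probe set of DSG2 had overlapping groups (log2 fold change 0.05, limma adjusted p = 0.65 over probe sets). Which part of each transcript a probe set reads was not determined here.

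The genes whose profile over the 6 arrays, centred on the gene's mean, came closest to CLDN1 among 19774 others were PALLD, GLCCI1 and STK38L, with root mean square differences of 0.0855, 0.0907 and 0.0977 on the log2 scale. PALLD encodes palladin, an actin-binding protein, and was higher in DTPs by 1.60 on the log2 scale. For OCLN they were RSL24D1 (0.0230), the alanyl-tRNA synthetase gene AARS1 (0.0230) and SNHG17 (0.0251), whose log2 fold changes were -1.03, -1.02 and -1.0. This measure rests on 6 arrays in 2 groups and mostly reflects a like difference between the groups.

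Of 31 other tight junction genes measured, 2 were called higher (8.08% of all genes were) and 1 lower (6.13% of all genes were). By the adjusted p alone 9 were higher and 6 lower (20.4% and 24% of all genes), and the groups did not overlap in 19 (53.7% of all genes). The log2 fold changes ran from -0.86 to 0.75 around a median of -0.01, beside -0.05 for all genes. RAB13, a small GTPase that delivers junction proteins to the membrane, read 11.48, 11.50 and 11.58 in parental cells and 12.29, 12.19 and 12.33 in DTPs, a 1.68-fold rise (limma adjusted p = 1.9e-06). The scaffold MAGI3 rose 1.52-fold (limma adjusted p = 6.0e-06), but with the mean over its probe sets it did not pass (0.12, adjusted p = 0.18). TJAP1, a protein associated with the junction, fell 1.81-fold, from 11.35, 11.41 and 11.33 in parental cells to 10.57, 10.48 and 10.47 in DTPs (limma adjusted p = 3.7e-07). None of the 13 other claudins on this list was called, and their log2 fold changes ran from -0.52 (CLDN8) to 0.49 (CLDN23), the ends of the range being named after their values were seen.

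Of the 12 other desmosome genes, 1 was called higher and 0 lower (8.08% and 6.13% of all genes were), 5 had both group means below the median of all probe sets, and the median log2 fold change was -0.04. PKP2, a plakophilin of the plaque, read 9.25, 9.20 and 9.09 in parental cells and 9.77, 9.76 and 9.88 in DTPs, a 1.54-fold rise (0.62 ± 0.07 SE, limma adjusted p = 1.4e-05). The call of PKP2 was lost without parental replicate 3 (0.58) or DTP replicate 3 (0.58) and with the mean over its probe sets (0.47). The desmogleins and desmocollins of stratified epithelia, DSG1, DSG3, DSG4, DSC1 and DSC3, were the 5 dim ones.

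Among neighbouring structures, 1 of 13 adherens junction genes was called higher and 1 lower, beside 8.08% and 6.13% of all genes. The actin linker VCL rose 1.59-fold (limma adjusted p = 9.1e-06, 0.32 and no longer called with the mean over its probe sets), and CTNNA1, the α-catenin gene, was 2.66-fold lower (-1.41 ± 0.07 SE, limma adjusted p = 4.9e-09, -0.88 with the mean). CDH1, the E-cadherin gene, differed by -0.06 (95% interval -0.20 to 0.08, limma adjusted p = 0.49) and was not picked by the rule for naming genes. Of 12 polarity genes 0 were called higher and 1 lower (8.08% and 6.13% of all genes were), namely PARD3, a scaffold of the apical complex, at 1.70-fold lower (limma adjusted p = 5.5e-06), and not with the mean over its probe sets (-0.49). Of 8 keratin genes 3 were called higher and 0 lower (8.08% and 6.13% of all genes were), and 5 were higher and 2 lower by the adjusted p alone (20.4% and 24% of all genes). KRT80 rose 2.99-fold, KRT5 2.46-fold and KRT7 1.96-fold (limma adjusted p = 1.7e-09, 1.5e-08 and 1.0e-06), the last not called with the mean over its probe sets (0.38). The 2 keratins that passed the adjusted p in the other direction, named after their values were seen, were KRT15 (-0.49, limma adjusted p = 0.0011) and KRT14 (-0.28, limma adjusted p = 0.029).

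**Figure D4:**
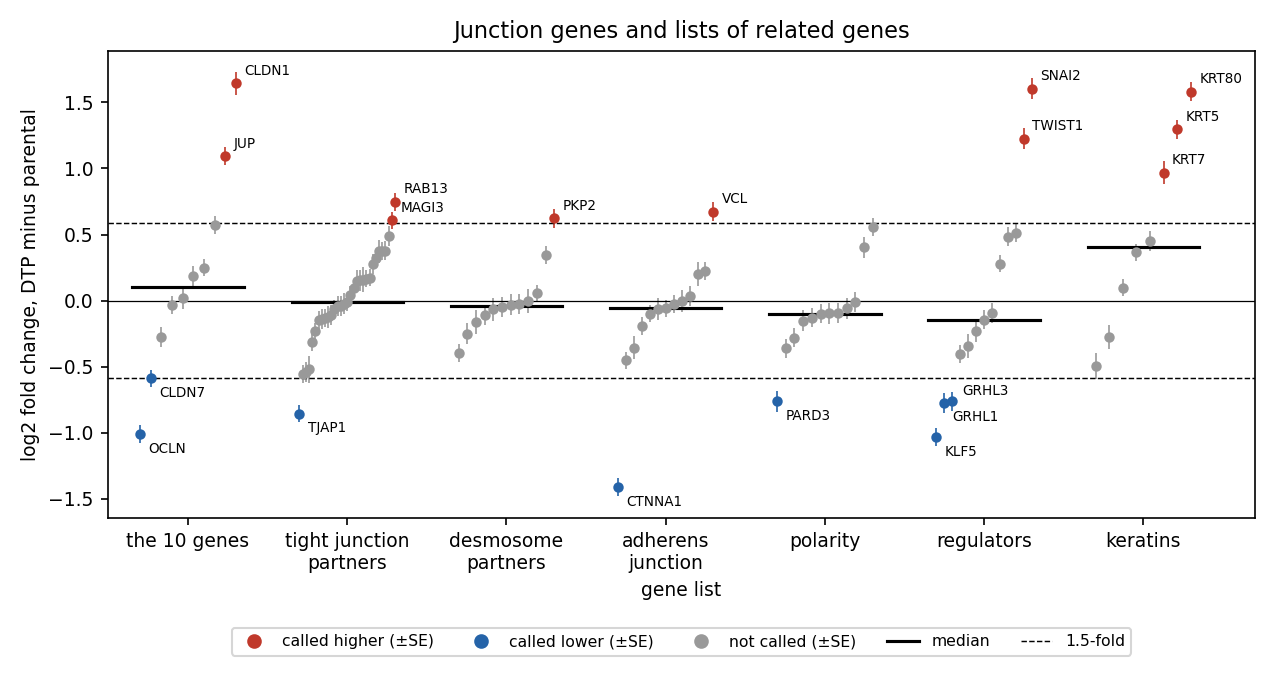
Log2 fold change between DTPs and parental cells (DTP minus parental, vertical axis) for the 10 genes and for 6 lists of related genes (horizontal axis, genes in rising order within a list), with limma's SE from 3 arrays per group as lines. Red and blue points are called higher and lower, grey points are not called, black bars are list medians and dashed lines mark 1.5-fold. The medians run from -0.14 for the regulators to 0.41 for the keratins. Each list has at most 3 genes called higher and at most 3 called lower.

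Of 13 transcription factors known to control epithelial junction genes, 2 were called higher (8.08% of all genes were) and 3 lower (6.13% of all genes were), and 5 were higher and 6 lower by the adjusted p alone (20.4% and 24% of all genes). SNAI2, or Slug, a repressor that binds the DNA motif known as the E-box, read 10.25, 10.04 and 10.10 in parental cells and 11.63, 11.75 and 11.83 in DTPs, a 3.04-fold rise (limma adjusted p = 4.9e-09). TWIST1, which also binds E-boxes, rose 2.34-fold (limma adjusted p = 6.6e-08), with both group means below the median of all probe sets. KLF5, an activator in epithelia, was 2.05-fold lower (limma adjusted p = 8.7e-08). The Grainyhead-like factors GRHL1 and GRHL3, which activate junction genes, were 1.71-fold and 1.70-fold lower (limma adjusted p = 3.2e-06 and 2.0e-06). Uncalled factors of both kinds went the other way. The epithelial factors OVOL2, ELF3 and GRHL2 differed by 0.51, 0.48 and 0.28 on the log2 scale (limma adjusted p = 4.0e-05, 0.00012 and 0.0036), and the E-box repressors ZEB1 and TWIST2, both below the median of all probe sets, by -0.23 and -0.34 (limma adjusted p = 0.027 and 0.0073). OVOL1, a relative of OVOL2, differed by -0.41 (limma adjusted p = 3.0e-04). GRHL3 and these 6 uncalled factors were named after their values were seen.

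The E-box letters CAGGTG, on either strand, were searched in the RefSeq promoter windows of GRCh38.p14, which run from 250 bases before to 50 bases after a transcription start. All 10 members matched the table, with 17 windows among them. The letters occurred in 9 of these 17 windows (52.9%), from 8 of the 10 genes, and in 20.6% of all 35116 windows. The windows of a gene overlap in part or share a locus, and the members' windows were richer in G and C (median 67.0%) than all windows (58.7%). CLDN1 and CLDN4 had no match. The stretches below belong to the 3 called members with a match and to DSP, which was not called. Each is on the gene's own strand, with the E-box letters (CAGGTG or its reverse complement CACCTG) in capitals. The uncalled CLDN3, TJP1, DSG2 and DSC2 also had matches, which are not shown. CLDN7, OCLN and DSP had further matches outside these stretches. A further CLDN7 match, which begins at position 6, starts within the CLDN7 stretch and runs past its end. Its first letters are therefore not in capitals. The E-box in the middle of each stretch begins at position -9, -33, -43 or -85 from the start, in the order shown.
CLDN7, chr17:7262470-7262499, minus strand: tCAGGTGcgcccCACCTGtccgcccgcacc
OCLN, chr5:69492502-69492531, plus strand: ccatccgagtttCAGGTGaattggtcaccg
JUP, chr17:41786002-41786031, minus strand: cCACCTGccgagCAGGTGagcgcacggagt
DSP, chr6:7541574-7541603, plus strand: gaagaaaccggcCAGGTGtggcctaggcgc

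Of the called members with these letters JUP rose while CLDN7 and OCLN fell, and CLDN1, which rose most, had none in its 1 window. Binding to these letters, and any part of it in these changes, was not tested. The TEAD letters GGAATG were in 0 of the 17 windows and in 14.0% of all windows. The AP-1 letters TGAGTCA and TGACTCA were in 1 of the 17, that of CLDN4, and in 4.95% of all windows. A match or its absence describes only these letters in these windows.

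Markers of cell types were also examined. The 8 epithelial markers were bright, among them EPCAM (13.76 in parental cells and 13.57 in DTPs) and KRT18 (14.49 and 14.59). Their mean per array was 13.01 to 13.04 in parental cells and 13.10 to 13.18 in DTPs. KRT7 was called higher and the splicing factor ESRP1 called lower (2.48-fold). Beside these and the marker calls below, 8.08% of all genes were called higher and 6.13% lower. Of 8 fibroblast markers COL1A1 alone was called (6.36-fold higher, with means of 8.44 in parental cells and 11.11 in DTPs). Their mean per array was 7.01 to 7.09 in parental cells and 7.30 to 7.41 in DTPs, but their median log2 fold change was -0.03. COL1A2 was lower by the adjusted p alone (-0.26, limma adjusted p = 0.027), and DCN and LUM did not pass (limma adjusted p = 0.69 and 0.98). The means of the endothelial markers (7.63 to 7.71 against 7.42 to 7.53) and of the blood cell markers (7.02 to 7.04 against 7.0 to 7.15) were near the median of all probe sets. Single markers lay above or below it. PECAM1 read 10.09 in parental cells and 9.40 in DTPs and was called lower (1.61-fold). No blood marker was called, and CD3E (8.42 and 8.25) and HBB (8.39 and 8.34) were brighter than PTPRC (5.36 and 5.32). For RNA quality, the 3′ minus 5′ log2 value of the β-actin control probe sets averaged 0.17 ± 0.03 on the parental and 0.06 ± 0.03 on the DTP arrays (SD, n = 3, two-sided exact permutation p = 0.10, the smallest that 3 against 3 arrays allow). That of the GAPDH control probe sets averaged -0.15 on the parental and -0.18 on the DTP arrays, a difference of -0.02 (two-sided exact permutation p = 0.10). The part of these values in the results of the junction genes was not tested.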

How the data were processed

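The deposited log2 values are probe set summaries that the authors made, per the labels, by robust multi-array averaging (RMA) with affy, and per their methods with quantile normalization. The version of either is not given in the sources used here. The summaries carry no detection call and understate folds of dim probe sets, and quantile normalization hides a change in total mRNA. The array number, 3 per group, limits precision. The labels do not tie replicates to separate experiments, so p-values may measure technical spread.

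Of 54675 probe sets, 62 controls were left out. The platform annotation, with symbols updated through RefSeq, named exactly 1 gene for 41091, several for 1801 and none for 11721. Each gene was read from its brightest probe set by the mean of the 6 arrays, without the suffix _x_at where possible. DTPs and parental cells were compared with limma 3.58.1 in R 4.3.3 (lmFit, eBayes, two-sided, no covariate), over 19775 genes and over 54613 probe sets. Thresholds were those of the study's methods. On simulated data 51.9% of genes changed 1.5-fold and 98.2% of those changed 2-fold were called. A simulated fold of 1.5 lies on the fold minimum itself, which largely sets the first share. Few genes were changed in the simulation, with independent noise, whereas 44.5% of all genes passed the adjusted p here. These shares therefore do not measure sensitivity in these data. The genes, lists and motifs were chosen with earlier results of these data known. All members were named, and of other lists up to 4 called genes with the largest change, or the 2 of lowest p in a list with no call. Some genes were named outside this rule, among them CDH1 and those marked in the text. Some genes on the lists were not analysed here, among them F11R, MAGI1, ARHGEF2, CTNND1, TP63, KRT6A and KRT17. Alternatives were a replicate block, leaving out each array, 2 centrings, cyclic loess, a filter on dim probe sets, other probe set rules, array weights, robust variances with an intensity trend and other fold minimums.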

Additional observations from a re-analysis of the deposited data

How the results depend on the processing

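CLDN1 and JUP were called higher and OCLN lower under all 17 alternatives run, with log2 fold changes of 1.55 to 1.82 for CLDN1, 1.06 to 1.27 for JUP and -1.04 to -0.64 for OCLN. CLDN3, CLDN4, DSG2, DSC2 and TJP1 were not called under any alternative with a fold minimum. The sign of DSC2 turned without DTP replicate 3 (-0.07, in a range of -0.07 to 0.07 over arrays left out) and with array weights (-0.04), and that of TJP1 without DTP replicate 2 (0.01, in a range of -0.07 to 0.01), under cyclic loess (0.02), ribosomal centring (0.08) and spike-in centring (0.14), and the cause was not tested. Leaving out single arrays gave 1 to 2 member genes called lower, as low as 1 without parental replicate 2 or DTP replicate 2, and the count was 1 under ribosomal centring, spike-in centring, cyclic loess and a fold over 2. Member probe sets called higher were 5 under spike-in centring. No such count moved with the replicate block, which gave 1597 genes higher and 1212 lower, as without it, and 2 members higher and 2 lower. Same-numbered arrays had deviations correlated at -0.13, 0.08 and -0.05, and differently numbered ones at -0.12 to 0.17. No pairing by number was seen, but 3 arrays per group cannot exclude one.
Spike-in centring moved the median of all genes from -0.05 to 0.13, with 2437 genes called higher and 730 lower, 76.9% of calls higher against 56.9%, and ribosomal centring gave 70.7%. The spike-ins themselves differed by -0.18 (exact permutation p = 0.10). They are hybridization controls, read here from the values after normalization, and give no measure of the total mRNA of a culture. Centring on them shifts all genes of an array by the same amount. It took the limma adjusted p of CLDN1 from 9.5e-09 to 1.3e-42. The p-values given under spike-in centring are therefore not comparable with the others. Without a fold minimum 4043 genes were higher and 4754 lower, with 4 member genes and 8 member probe sets higher and 5 probe sets lower. With a fold over 2 these were 679 and 431 genes, and 1 member probe set lower.
When single arrays were left out, 0 to 1 desmosome partners were higher (0 without parental or DTP replicate 3), 1 to 3 tight junction partners lower (2 without DTP replicate 1, 3 without DTP replicate 2), 0 to 1 polarity genes higher (1 without parental replicate 3 or DTP replicate 2) and 0 to 1 keratin genes lower (1 without DTP replicate 2). Under ribosomal and under spike-in centring 4 regulators and 1 polarity gene were higher, and under cyclic loess 1 polarity gene was. Without dim probe sets 1 regulator was higher, since TWIST1 was dropped. With the mean of probe sets 1 tight junction partner, 0 desmosome partners and 0 adherens genes were higher and 0 polarity genes lower. Without a fold minimum the counts higher and lower were 9 and 6 for tight junction partners, 2 and 2 for desmosome partners, 2 and 4 for adherens genes, 2 and 3 for polarity genes, 5 and 6 for regulators and 5 and 2 for keratins. With a fold over 2, 0 tight junction partners, desmosome partners and adherens genes were higher, 0 tight junction partners and polarity genes lower and 1 regulator lower. The cause of these shifts was not tested.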

Other observations

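DTP replicate 3 was the highest of the 3 DTP arrays on all 7 probe sets of DSP, DSG2 and DSC2, and on 36.2% of all probe sets. It was the highest on 11 of the 21 probe sets of the 10 genes, and not on that of JUP. On the 4 probe sets of DSC2 its values were 9.55, 8.88, 7.95 and 6.03, against 9.29, 8.56, 7.64 and 5.80 for the next DTP array. These probe sets share arrays and, for DSC2, a transcript, and were picked out after their values were seen.

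Probe sets assigned to the antisense genes of 2 members were not called. DSP-AS1 had a log2 fold change of 0.27 (limma adjusted p = 0.034 over probe sets), with both group means below the median of all probe sets, beside 0.57 for DSP itself. The 3 probe sets of DSG2-AS1 had log2 fold changes of -0.20, 0.17 and -0.03, with limma adjusted p between 0.074 and 0.75.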
